A study of Mus musculus with 5 samples.

Results

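Ccn1, Ccn2 and Ankrd1 are 3 genes that adherent cells transcribe more when they are stretched or spread, and the array carried 5 probes that map to exactly 1 of them. Ccn1 (Cyr61 in older annotation) and Ankrd1 (also called CARP) had 2 probes each and Ccn2 (formerly Ctgf) had 1, among 20205 probes in all. The genes were selected on their measured ratios in these arrays, so their ratios between the cell lines are given as a description, with no test. Of the 3 genes, 2 had values in both dye orientations of both preparations and entered the fit across all features. Ccn2 had values on arrays B1 and B2 only.

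The study set mouse fibroblasts of the line NIH3T3 that constitutively overexpress human ERBB2 (HER-2/NEU), driven by a cytomegalovirus promoter, against the parental NIH3T3 cells without the transgene. Both lines were kept in the same serum-supplemented medium, and neither an empty-vector line nor the number of transfected clones behind the Erbb2 cells is described in the labels. Labelled cDNA of both lines was hybridised together on each of 5 two-colour arrays, 3 of RNA preparation A (A1, A2 and A3) and 2 of preparation B (B1 and B2). Erbb2 cDNA carried Cy5 on A3 and B2, and Cy3 on A1, A2 and B1. Ratios below are on the log2 scale, with Erbb2 cells over NIH3T3 cells. Their direction is likely rather than settled: Cy5 was taken as the numerator because it is the first channel in the labels, and under the opposite reading every sign below turns. The annotation used here names no probe for Erbb2 alone, so the transgene gave no check of labels or direction. The labels do not say that the preparations came from separate cultures, so the spread between them may be technical. In RNA from whole cultures, fewer cells that transcribe a gene and less RNA per cell cannot be told apart.

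CCN1 and CCN2 are secreted matricellular proteins that bind integrins and heparan sulfate in the surrounding matrix, and both are made by fibroblasts during matrix remodelling. ANKRD1 is an ankyrin-repeat protein best known from the heart, where it is found in the nucleus and in the sarcomere. All 3 genes are widely used as readouts of YAP and TAZ, coactivators that enter the nucleus in spread cells and bind DNA through the TEAD factors. Phosphorylation by the Hippo kinases keeps YAP and TAZ in the cytoplasm. A parallel route runs through serum response factor (SRF) and its coactivators of the MRTF family, which are released when actin polymerises.

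The upstream sequences are shown because the members are read out as targets of TEAD factors. The 250 bases before each gene's start were taken from a RefSeq promoter table of mouse build GRCm38.p6, both genes lie on the minus strand, and capitals mark GGAATG or its reverse complement CATTCC, the core that TEAD factors bind. Ccn2 was not among the sequences used here.

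Ccn1 (chr3:145649986-145650235): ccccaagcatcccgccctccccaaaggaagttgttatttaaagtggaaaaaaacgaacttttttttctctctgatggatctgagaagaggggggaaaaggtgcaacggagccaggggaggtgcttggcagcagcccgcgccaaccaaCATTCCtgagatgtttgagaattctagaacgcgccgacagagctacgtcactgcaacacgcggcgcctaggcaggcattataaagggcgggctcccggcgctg

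Ankrd1 (chr19:36119845-36120094): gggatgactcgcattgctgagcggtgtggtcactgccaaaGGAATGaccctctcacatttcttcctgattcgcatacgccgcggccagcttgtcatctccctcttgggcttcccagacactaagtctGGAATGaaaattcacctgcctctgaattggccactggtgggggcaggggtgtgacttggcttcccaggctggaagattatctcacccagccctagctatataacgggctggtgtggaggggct

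The Ccn1 sequence held 1 TEAD core, from 103 to 98 bases before the start. The Ankrd1 sequence held 2 TEAD cores, from 210 to 205 and from 123 to 118 bases before the start. On either strand, 12.6% of 32851 promoters of the same length held at least 1 TEAD core, and 1.02% held 2 or more. The AP-1 motif TGANTCA was found in neither sequence, against 6.75% of all promoters, and the CArG box of SRF was found in neither, against 1.47%. TATAAA was found once in the Ccn1 sequence, from 25 to 20 bases before its start, and in 12.4% of all promoters. A match describes letters, and says nothing of occupancy in these cells.

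Ccn1 was lower in Erbb2 cells than in NIH3T3 cells on every array. Its first probe, 1789, had values on all arrays. It had log2 ratios of -2.00 on A1, -0.99 on A2, -3.65 on A3, -3.14 on B1 and -5.01 on B2. In linear terms Erbb2 cells were 3.99-, 1.98-, 12.6-, 8.83- and 32.2-fold lower on these arrays, in the same order. The lowest ratio within each preparation was on the array with Erbb2 in Cy5. The preparation means of this probe, with dye orientations averaged first, were -2.57 for A and -4.07 for B, with a mean of -3.32 ± 1.06 (SD, n = 2).

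The second Ccn1 probe, 2688, had values on 3 arrays, -0.51 on A2, -3.90 on B1 and -3.10 on B2, that is 1.42-, 14.9- and 8.60-fold lower in Erbb2 cells. The probes differed most on B2, where the second lay 1.90 above the first. On B1 the order was turned, with the second 0.76 below the first, and on A2 it lay 0.48 above. A2 gave the weakest ratio of both probes, and every array of preparation B lay below -3. Averaged to a gene, Ccn1 had -2.00, -0.75, -3.65, -3.52 and -4.06 on A1, A2, A3, B1 and B2.

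Ccn2 had the lowest ratios of the 3 genes. Its single probe had -4.43 on B1 and -5.97 on B2, or 21.5- and 62.7-fold lower in Erbb2 cells, with a mean of -5.20 (SD of the arrays 1.09, n = 2 arrays). That is 36.8-fold lower in Erbb2 cells. Counting from the lowest ratio, it was number 7 of 17463 probes with a value on B1 and number 4 of 13109 on B2. Among 11045 features with values on both arrays, 7 lay below -4 on both, which is 0.0634%: Ccn2, Atoh8, Bgn, Col1a1, Fn1 and 2 probes with no gene name here. Preparation A gave no value for Ccn2, so no spread between preparations can be stated.

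Ankrd1 was lower in Erbb2 cells by a smaller margin, which was widest in preparation B. Its first probe had -0.06 on A1, -1.21 on A2, -0.39 on A3, -1.90 on B1 and -1.67 on B2. These correspond to 1.04-, 2.32-, 1.31-, 3.72- and 3.18-fold lower in Erbb2 cells, so A1 was close to no difference. The second probe had values on B1 and B2 only, -1.97 and -1.51, which differ from the first by -0.08 on B1 and 0.15 on B2. The preparation means of the gene were -0.51 for A and -1.76 for B, with a mean of -1.14 ± 0.88 (SD, n = 2). On A1 the first probe ranked 2504 of 5368 from the lowest, near the middle, and on A3 it ranked 1850 of 7261. On B1 it ranked 60 of 17463.

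**Figure D1:**
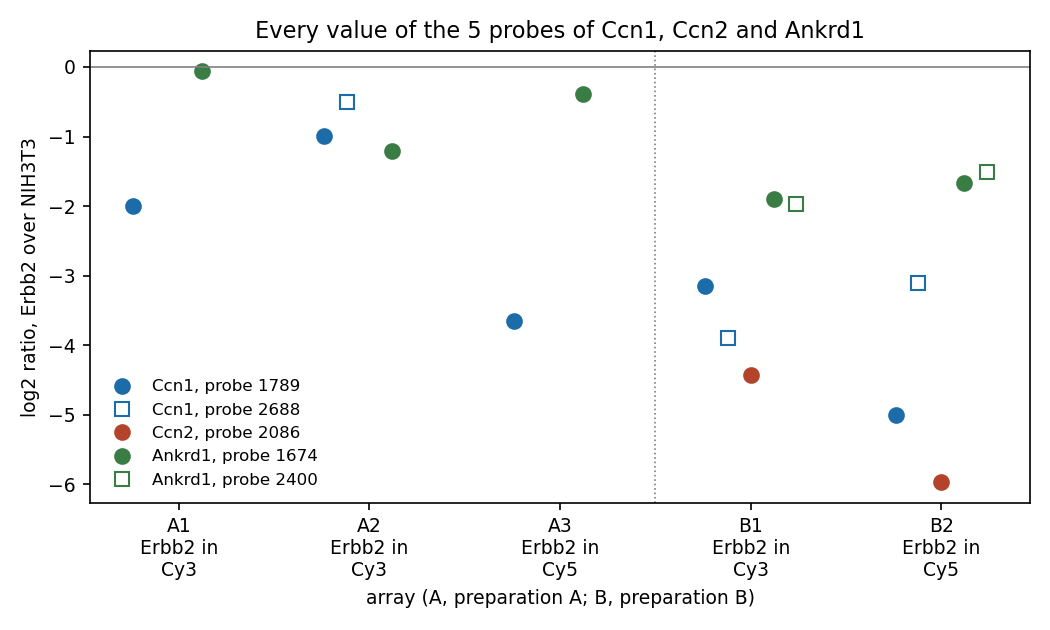
Log2 ratio of Erbb2 over NIH3T3 cells (vertical axis) for each of the 5 member probes on each array, with preparation A and B and the dye of Erbb2 cDNA marked. Every value plotted is below 0, the Ccn2 probe is the lowest member on B1 at -4.43 and on B2 at -5.97, and the Ankrd1 probe starts at -0.06 on A1.

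All 17 member values lay below 0, and the genes had been chosen by these ratios. For background, 13.6% of the 2872 probes with values on all 5 arrays were below 0 on each of them. The share was 17.5% of 2251 probes with values on exactly A2, B1 and B2, and 28.1% of 2166 probes with values on B1 and B2 alone. The order of the genes on the B arrays was the same on both: Ccn2 minus Ccn1 was -0.91 on B1 and -1.92 on B2, and Ccn1 minus Ankrd1 was -1.59 and -2.46. In preparation A, Ccn1 minus Ankrd1 was -1.93 on A1, 0.46 on A2 and -3.26 on A3. On A2 these genes therefore stood in the other order. These are differences between probes in a ratio, and do not compare transcript levels between genes.

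A few of the deposited values could be traced to ratios of whole numbers. Each array has a scaling constant, and with it removed 49.4% of the values on A3 could be written, to within 1e-06, as the log2 of a whole number at or below 300 divided by another. On A3 the first Ccn1 probe corresponded to 14 units in the Erbb2 channel over 239 in the NIH3T3 channel, known only up to a common multiple. On A2 the second Ccn1 probe corresponded to 113 over 131 units in the same sense. The other member values gave no such ratio with whole numbers up to 300. Signal over background is unknown here for all member values.

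The dye exchange and the preparations are other contrasts than the one the genes were chosen on, and both were fitted with limma on the 5 arrays. The genes were chosen on ratios of these same arrays, so the p-values for them are not independent of that choice. For Ccn1 the ratio averaged -3.86 with Erbb2 in Cy5 and -2.09 with Erbb2 in Cy3, a difference of -1.77 ± 0.64 (SE), and did not pass over all features tested (adjusted p = 0.296, unadjusted p = 0.0178). That fit holds no term for preparation. With preparation as a covariate, added after the data were seen, the difference was -1.53 ± 0.48 (SE, adjusted p = 0.174, unadjusted p = 0.00554). Within preparation A the values were -3.65 in Cy5 and -1.37 in Cy3, and within preparation B they were -4.06 and -3.52, so both preparations had the lower ratio with Erbb2 in Cy5. The probes behind the B values went opposite ways, the first with -5.01 in Cy5 and -3.14 in Cy3 and the second with -3.10 in Cy5 and -3.90 in Cy3. For Ankrd1 the dye difference was 0.08 ± 0.55 (SE, adjusted p = 0.966), and 0.29 ± 0.42 (SE, adjusted p = 0.804) with preparation as a covariate. Ccn2 had 1 array of each orientation, -5.97 with Erbb2 in Cy5 and -4.43 with Erbb2 in Cy3, and was not tested. Across the array, 7 of 5040 features (0.139%) passed the threshold of 0.05 for a dye effect without the preparation term, and 29 of 4892 with it. Without that term 643 features had an unadjusted p under 0.05, and the median absolute dye difference was 0.395. The median absolute difference between preparations was 0.293, from a fit with a dye term on 4892 features. The fits and feature sets differ, so these medians are not compared.

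Both tested genes were lower in preparation B. With the dye as a covariate, preparation A minus B was 1.40 ± 0.48 (SE) for Ccn1 and 1.26 ± 0.42 (SE) for Ankrd1. Neither passed after adjustment (adjusted p = 0.609 for each, unadjusted p = 0.00989 for Ccn1 and 0.00827 for Ankrd1), and 1 of 4892 features did (0.0204%). Unadjusted p-values under 0.05 were given by 330 features for the preparation term.

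**Figure D2:**
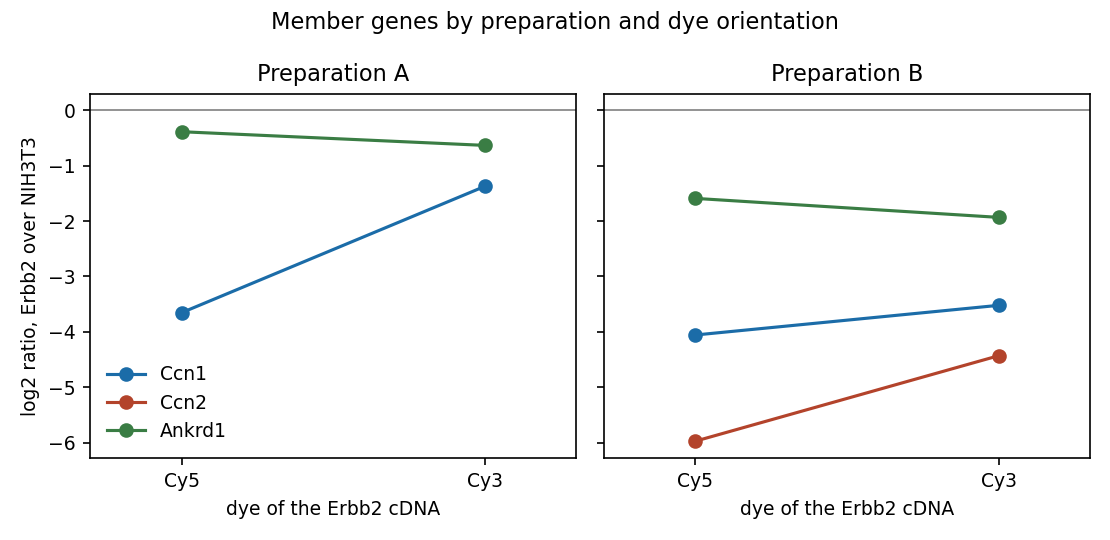
Log2 ratio of Erbb2 over NIH3T3 cells for Ccn1, Ccn2 and Ankrd1, by preparation and by the dye that Erbb2 cDNA carried. Ccn1 is lower with Erbb2 in Cy5 in both preparations (-3.65 against -1.37 in A, -4.06 against -3.52 in B), and Ankrd1 is lower in preparation B than in A in either orientation.

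Of the upstream regulators, Wwtr1 and Srf could be tested and neither passed the threshold with probes averaged. Wwtr1, which encodes TAZ, had 0.76, 1.73, 0.36, 1.15 and -0.24 on A1, A2, A3, B1 and B2, a mean of 0.63 ± 0.24 (SD, n = 2) that did not pass (adjusted p = 0.103 in limma). It passed under 1 of 13 other settings, with the probe that has values on most arrays (0.73, adjusted p = 0.0362). Yap1 had -0.18, 0.00, 0.43 and -0.25 on A1, A2, B1 and B2 and was not tested, since A3 gave no value. Srf had -0.15, 0.24, 0.85, -0.04 and -1.70, a mean of -0.21 ± 0.94 that did not pass (adjusted p = 0.715). Its sign turned to 0.20 without array B2. Mrtfa, an actin-regulated coactivator of SRF, had -0.39, -0.07 and -0.46 on A2, B1 and B2 and was not tested. The TEAD genes and Mrtfb had no value. RNA levels do not measure where YAP, TAZ or MRTF proteins were in the cell.

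**Figure D3:**
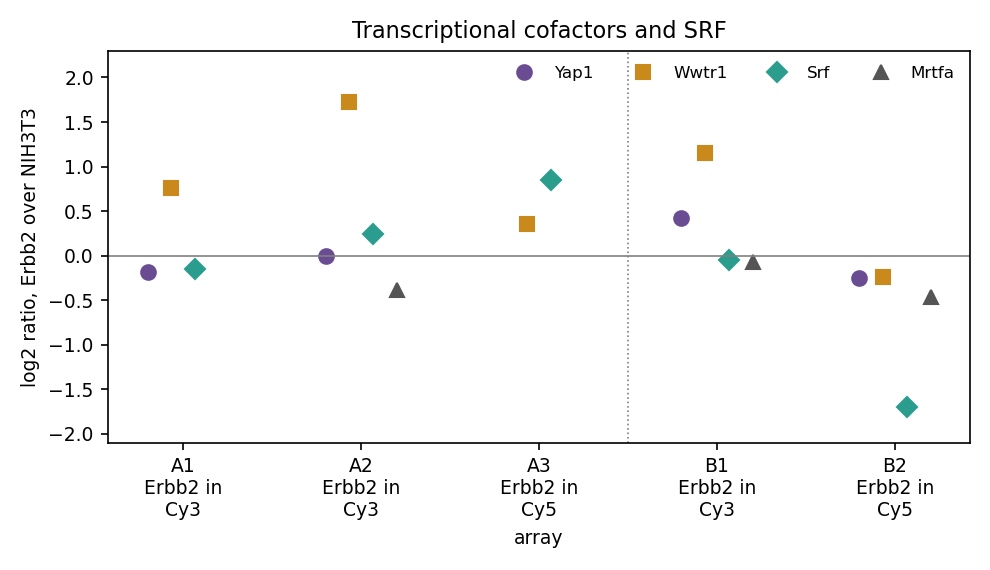
Log2 ratio of Erbb2 over NIH3T3 cells on each array for the upstream factors with values, with 1 symbol per gene. Wwtr1 lies above 0 on 4 of 5 arrays, Yap1 and Mrtfa stay within 0.46 of 0, and Srf spreads between -1.70 and 0.85.

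Altogether 7 lists of related genes were read against the whole array, where 332 of 4892 features passed the threshold in limma (6.79%), 222 of them lower in Erbb2 cells (4.54%) and 110 higher (2.25%), with a median log2 ratio of -0.02. Over all lists, 126 genes were listed, 81 were on the array, 78 had a value and 38 were tested. Of these 38, 8 were lower and 1 was higher, and the median was -0.23. The lists were drawn up with earlier results of these arrays known.

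Of 23 YAP and TEAD target genes besides the members, 7 were tested and 1 fell, with a list median of -0.23. It was Asap1, an Arf GTPase-activating protein of focal adhesions, with -2.08, -1.52, -1.70, -1.25 and -0.53 on A1, A2, A3, B1 and B2 and a mean of -1.32 ± 0.61 (SD, n = 2, adjusted p = 0.00814). Its call was lost without A2 or without B1. Fits without an array, here and below, also tested every feature with any value in both preparations, a wider filter. Birc5, the apoptosis inhibitor survivin, missed the threshold with a mean of 0.76 (adjusted p = 0.0508), and passed under 5 of 13 other settings (lowest adjusted p = 0.0156). The close relatives of the members in the CCN family and among the muscle ankyrin-repeat genes could not be read, since 1 of 6 was on the array and it had no value.

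Of 27 cytoskeletal target genes of SRF and MRTF, 12 were tested and 2 fell, with a list median of -0.26. Means below 0 were found for 10 of the 12 (83.3%), against 52% of all features tested. Over all lists the share was 68.4%. It was 80% for CCN receptors and partners, 75% for immediate early genes and 50% for the TGF-beta pathway. For YAP and TEAD targets and for Hippo genes it was 57.1% each. Cald1 encodes caldesmon, which binds actin and myosin, and had -0.77, -0.99, -1.31, -1.55 and -1.89 on A1, A2, A3, B1 and B2. Its mean was -1.41 ± 0.44 (SD, n = 2, adjusted p = 0.00365), and the call was lost without A2. Filip1l, a filamin-interacting protein, had -0.90, -0.85, -1.03, -0.47 and -1.84, with a mean of -1.05 ± 0.15 (adjusted p = 0.0112), and lost its call without A2, A3 or B2. Filamin A itself, Flna, missed the threshold with -0.75 (adjusted p = 0.0543), and passed under 2 of 13 other settings. Among the promoters of this list, 10 of 27 held a CArG box (37.0%), against 1.47% of all promoters and neither member sequence. These are counts of promoters rather than genes, since Cald1 and Filip1l each have more than 1. For the TEAD core the share by list ran from 0% (TGF-beta) to 46.2% (Hippo). It was 27.8% for YAP and TEAD targets and 22.2% for this list, against 12.6% of all promoters.

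Most genes of this list had a lower ratio in preparation B, where Ccn1 and Ankrd1 were also lower. Of its 12 tested genes, 11 had a higher ratio in preparation A than in B, against 50.2% of all 4892 features. The list averaged -0.06 in A and -0.69 in B. Other lists leaned this way too, with 29 of 38 tested genes over all lists (76.3%). The share was 6 of 7 for YAP and TEAD targets and 2 of 4 for immediate early genes. None of the 12 genes was tested for a preparation effect particular to this list. In the cytoskeletal list none passed for the preparation term in limma (lowest adjusted p = 0.644), and 5 of 12 had an unadjusted p under 0.05. Over all features 330 of 4892 did. In the TGF-beta list 2 of 6 did, and in the other pathway lists none did. The 5 cytoskeletal genes, named after their values were seen, were Srf, the actin genes Acta2, Actb and Actg1, and Actn1, the actin cross-linker alpha-actinin. Actg1 had 1.34, 0.94 and 0.44 on the arrays of preparation A, and -0.13 and -0.23 on those of B. Acta2 had 0.40, 0.70 and -0.14 in preparation A and -0.30 and -1.45 in B. The actin genes are closely related in sequence, so a cDNA probe may read more than 1 of them.

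Of 14 SRF and TCF immediate early genes, 4 were tested, with a median of -0.63, and 1 fell. Ier2, a nuclear protein induced rapidly by serum, had -1.01, -0.79, -1.32, -0.74 and -1.73, with a mean of -1.17 ± 0.09 (SD, n = 2, adjusted p = 0.00639). It lost its call without A2, A3 or B2. Of the genes that did not pass, Jun, an AP-1 subunit, averaged 0.71 (adjusted p = 0.0616) and passed under 3 of 13 other settings, and Fosb, another, averaged -0.65 (adjusted p = 0.0831) and passed under 1. Birc5, Flna, Jun and Fosb are named after their values were seen.

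Of 25 Hippo pathway genes, 7 were tested, 1 rose and the median was -0.05. Wwc1 encodes KIBRA, an activator of the Hippo kinases, and was higher in Erbb2 cells on every array with 0.78, 1.55, 2.29, 1.02 and 0.60. Its mean was 1.27 ± 0.65 (SD, n = 2, adjusted p = 0.0111), and the call was lost without A2, A3 or B1.

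Of 17 receptors and binding partners of CCN proteins, 5 were tested and 2 fell, with a median of -0.40. Itgb5, the beta subunit of an integrin that binds CCN proteins, had -1.06, -1.55, -1.04 and -2.69 on A2, A3, B1 and B2, with a mean of -1.59 ± 0.39 (SD, n = 2, adjusted p = 0.00146). Fn1, the matrix protein fibronectin, had -4.61, -4.01, -4.72, -4.70 and -4.70, with a mean of -4.61 ± 0.13 (adjusted p = 3.76e-07). Both stayed below the threshold in all 13 settings tried.

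Of 20 genes of the TGF-beta pathway, which also induces Ccn2, 6 were tested and 2 fell, with a median of -0.12. Tgfbr2, the type II receptor, had -0.31, -1.04, -1.09 and -2.25 on A2, A3, B1 and B2, with a mean of -1.17 ± 0.70 (SD, n = 2, adjusted p = 0.0185). Ltbp3, which holds latent TGF-beta in the matrix, had -1.02, -0.60, -1.20, -0.87 and -0.59, with a mean of -0.87 ± 0.20 (adjusted p = 0.0296). Ltbp3 lost its call whichever array was left out, and Tgfbr2 without A2, A3 or B2. Scaling arrays to equal spread also ended the calls of Filip1l, Wwc1, Tgfbr2 and Ltbp3, and quantile normalisation those of Tgfbr2 and Ltbp3. Testing every feature with any value in both preparations ended the calls of Asap1, Filip1l, Ier2, Wwc1, Tgfbr2 and Ltbp3.

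**Figure D4:**
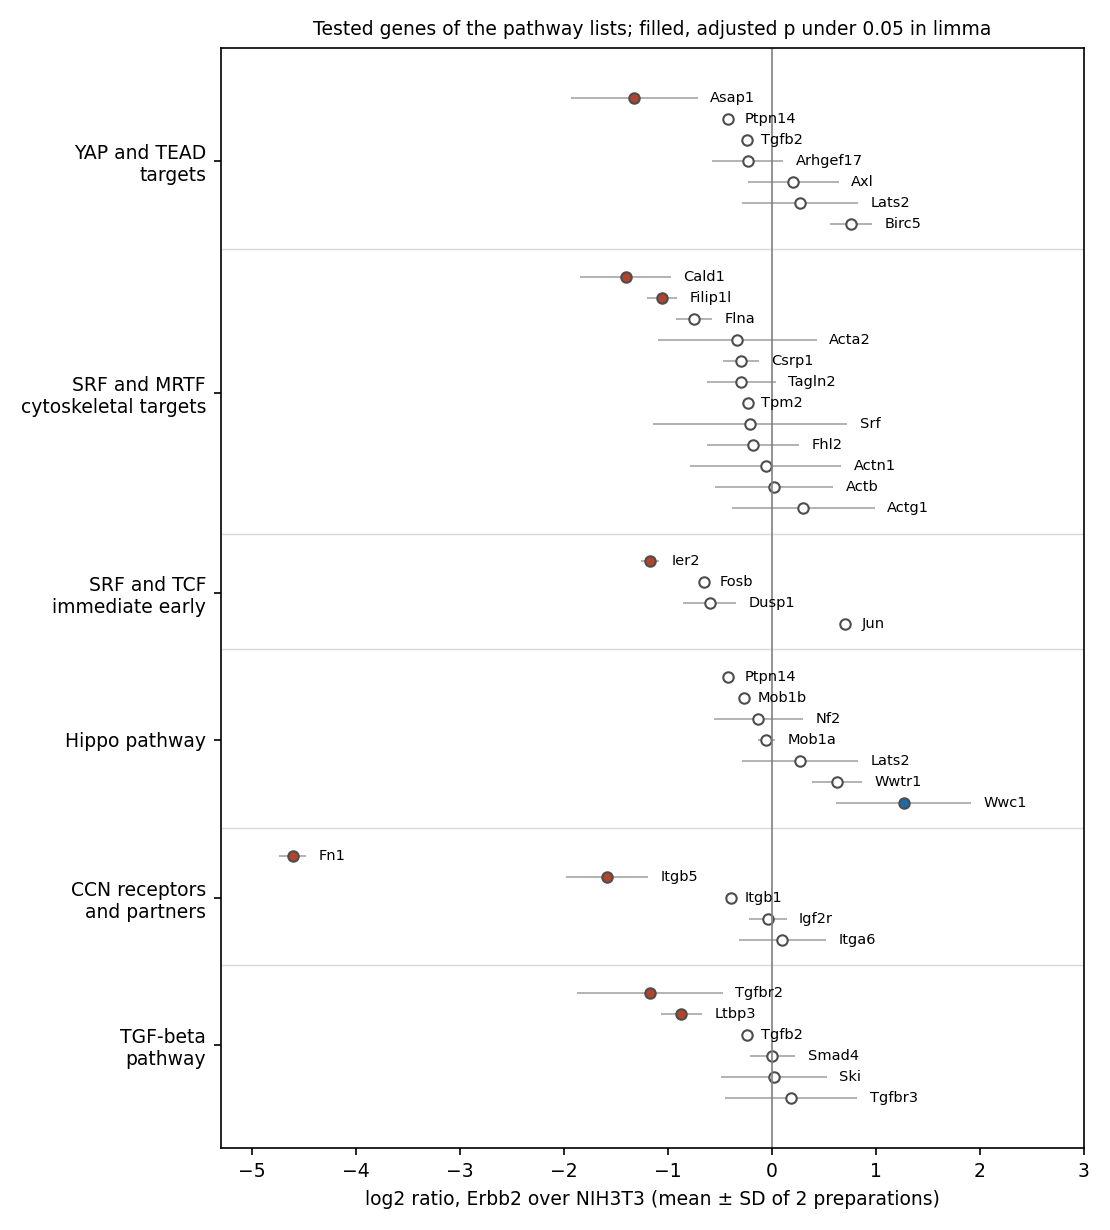
Mean log2 ratio of Erbb2 over NIH3T3 cells for the tested genes of each list, with bars for the SD of the 2 preparations and filled points for genes past the threshold. Most points lie between -1 and 1, 8 filled points lie below 0 with Fn1 lowest at -4.61, and Wwc1 is the filled point above 0 at 1.27.

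The genes whose ratios lay nearest to each member were found by the root mean square difference over the arrays where the member had values. Nearest to Ccn1, among 2005 genes with values on all 5 arrays, were Cyp26b1 at 1.18, Rbl2 at 1.25, Col1a2 at 1.29, Ltbr at 1.36 and Tinagl1 at 1.46. Cyp26b1 degrades retinoic acid, Rbl2 is a pocket protein of the retinoblastoma family and Col1a2 is a chain of type I collagen. Nearest to Ccn2, among 6213 genes with values on B1 and B2, were Col1a1 at 0.658, Bgn at 0.787, Fn1 at 0.917, Fbln5 at 1.12 and Atoh8 at 1.21. Of these, Col1a1, Bgn, Fn1 and Fbln5 encode extracellular matrix proteins, a collagen chain, the proteoglycan biglycan, fibronectin and fibulin-5, and Atoh8 encodes a transcription factor. Nearest to Ankrd1, among 2005 genes on all 5 arrays, were Cald1 at 0.572, Znf41-ps at 0.600, Dph3 at 0.605, Rpa1 at 0.613 and Aqp6 at 0.631. The distances for Ccn1 exceeded 1 log2 unit for every gene, and those for Ccn2 rest on 2 arrays.

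**Figure D5:**
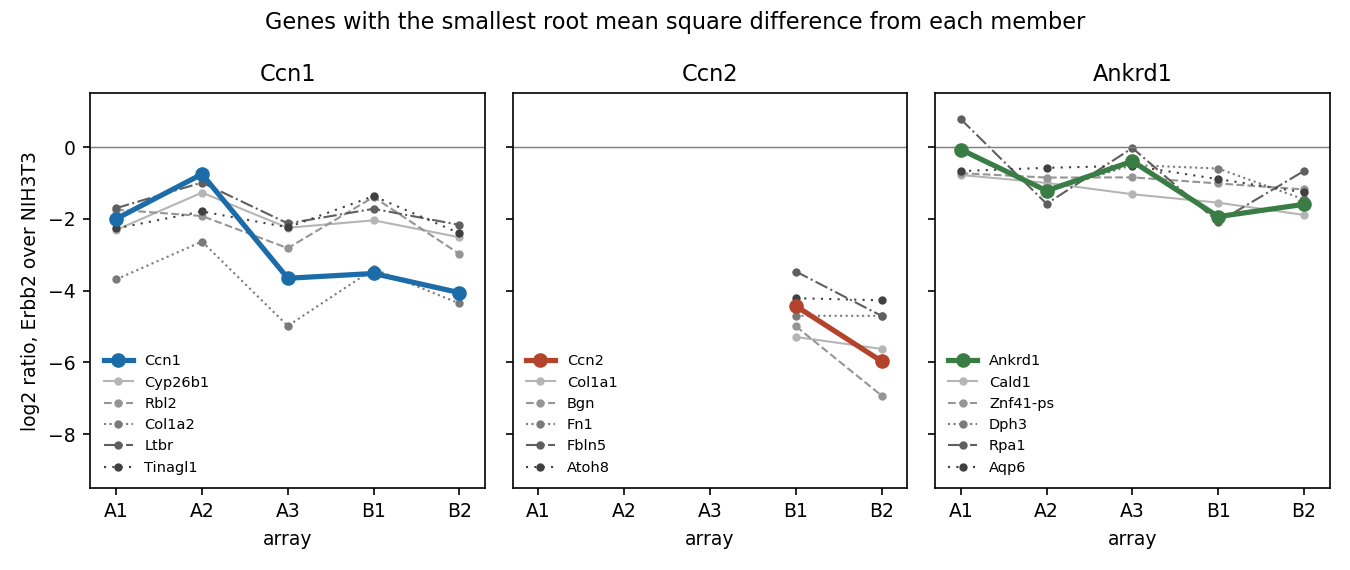
Log2 ratio of Erbb2 over NIH3T3 cells by array for each member and the 5 genes with the smallest root mean square difference from it. Lines near Ccn2 cover B1 and B2 in the comparison and lie below -3 there, and lines near Ankrd1 lie closest, with differences from 0.572 to 0.631.

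The labelled cell type was read through marker lists. Of 10 fibroblast markers, 6 were tested, 2 were lower in Erbb2 cells (Col1a1 and Col1a2) and 1 was higher (Cd44). Those that did not pass were Vim with a mean of 0.47, Fap with -0.60 and S100a4 with -0.01. These are ratios, so they do not show whether a marker was present in either line. Epithelial and endothelial markers gave 1 tested gene each, Krt19 at 0.19 and Flt1 at 0.16, and macrophage markers gave none. Muscle markers, listed because Ankrd1 is a muscle gene, gave 2 tested genes. Tnnt2, cardiac troponin T, was lower in Erbb2 cells with -2.02, -1.55, -1.48 and -1.66 on A2, A3, B1 and B2 and a mean of -1.68 ± 0.16 (SD, n = 2, adjusted p = 5.80e-04 in limma), and Tnnt3 averaged 0.21. The part of any other cell type in the member ratios was not tested.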

How the data were processed

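The deposited values are log2 ratios of Cy5 over Cy3 as taken here, made by the authors, per the labels, from arrays scanned on a GenePix 4000A and read in GenePix Pro 3.0. Per the labels, background was subtracted from mean intensities and each array was scaled to a median ratio of 1. The sources used here give no rule for empty values. Base 2 was checked on the values: 18.7% to 58.8% per array were log2 ratios of whole numbers, against at most 2.67% under a natural logarithm. The 3 arrays with Erbb2 in Cy3 were turned in sign. Probes with a value numbered 5368 on A1, 11348 on A2, 7261 on A3, 17463 on B1 and 13109 on B2, and the number of arrays limits the precision. After turning, arrays correlated at 0.451 to 0.519 within a dye orientation and at 0.174 to 0.542 between orientations.

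Probes were named from the platform annotation, which gave 1 symbol to 11723, several to 806 and none to 7676. Probes of 1 symbol were averaged, dye orientations were averaged within each preparation, and lmFit and eBayes of limma 3.58.1 (R 4.3.3) set the 2 preparation means against 0, with Benjamini-Hochberg adjustment over 4892 features, 1 residual and 10.2 prior degrees of freedom. Dye and preparation terms were fitted on the 5 arrays. The code was tested on simulated data. Members, lists and markers were chosen with earlier results of these data known. Genes named are list members past the threshold, the upstream factors and the 5 nearest genes per member. Figures used matplotlib 3.10.9. Another list of related genes is not reported here. Alternatives covered scaling, probe and array averaging, filters, direction, leaving out each array and, added after the data were seen, preparation as a covariate of the dye term.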

Additional observations from a re-analysis of the deposited data

Results flagged for a closer look

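Among 14 genes of the report looked at over their arrays, Fn1 had 1 array far from the others. Its ratio was -4.01 on A2, and on the remaining 4 arrays it lay between -4.72 and -4.61, a gap of 0.842 of its whole range. It lay below -4 on every array. Chance sets apart about 1 in 20 such groups.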

How the results depend on the processing

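The labels give 1 ratio per array and no second group with the same replicate numbers. Each ratio already pairs the cell lines on its array, so a further block by replicate number was not fitted. The count of 332 features called became 124 with arrays scaled to 1 spread and 193 after quantile normalisation. It was 564 when only probes in both orientations were averaged, and 149 with any value in both preparations. Fits with 1 array left out used that last filter, so their counts stand beside 149 rather than 332. They lay between 86 (without A2) and 316 (without A1), with 208 without A3. The 9 called list genes became 5 with scaling and 4 with any value in both preparations. Under that filter with 1 array left out, the called list genes numbered 2 (without A2) to 9. They became 12 in a fit on 5 arrays with a dye term, 10 with plain means, 10 with arrays centred on the tested features, 12 with the probe on most arrays, 13 with only probes in both orientations, and 7 after quantile normalisation. Leaving out 1 array gave Ccn1 -3.31 to -2.58, Ccn2 -5.97 to -4.43 and Ankrd1 -1.28 to -0.99. The dye difference of Ccn1 ranged over -2.48 to -1.10 and that of Ankrd1 over -0.52 to 0.68, with its sign turned without A3 (-0.52) and without B1 (-0.35). The difference of preparation A minus B ranged over 0.40 to 2.15 for Ccn1 and 0.96 to 1.54 for Ankrd1. Features called for the dye term ranged over 0 to 27, the highest without A1, and for the preparation term over 1 to 25, the highest without A1 or A2. Srf turned to 0.20 without B2, with a range of -0.62 to 0.20. With Cy3 as the numerator the values were 3.15 for Ccn1, 5.20 for Ccn2, 1.14 for Ankrd1, 1.32 for Asap1, 1.41 for Cald1, 1.05 for Filip1l, 1.17 for Ier2, -1.27 for Wwc1, 1.59 for Itgb5, 4.61 for Fn1, 1.17 for Tgfbr2, 0.87 for Ltbp3, -0.63 for Wwtr1 and 0.21 for Srf. Ccn2 has no value when only probes in both orientations of both preparations are averaged. Apart from the opposite direction, whose construction turns signs, the cause of these changes was not tested.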

Other observations

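Of the list genes, 40 had a value but not in both dye orientations of both preparations, and were not tested. Of these, 26 had a mean below 0 and 14 a mean at or above 0. Among all features tested, which are a different set, 52% had a mean below 0. Of the 40 genes, 5 had means below -1 and 2 had means above 1, all named after their values were seen. Crim1, a transmembrane protein with cysteine-rich repeats that is listed as a YAP and TEAD target, had -1.80 on B1 and -2.27 on B2. Lrp1, an endocytic receptor that binds CCN2, had -1.52 on A2 and -1.52 on B1. Ltbp2, a latent TGF-beta binding protein family member, had -1.21 on A1, -0.85 on A2 and -1.25 on B1. The other low values rest on B2 alone, -1.05 for Sdc2 and -1.02 for Myl9. The high values rest on B1 alone, 1.46 for Tgfbi and 1.14 for Klf6.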
